A study of Mus musculus with 3 samples.

Results

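The ribosomal protein genes of the adult mouse lacrimal gland (LG) were described across the acinar cells, ordered by sequencing depth and by mitochondrial share, and across the other cell types of the gland. Members were chosen by name alone: every gene whose symbol is Rpl or Rps followed by a number, with an optional a, x, y or l, together with the stalk genes Rplp0, Rplp1 and Rplp2 and Rpsa, without pseudogenes and without genes that had no read. The rule matched 80 genes of the tables. Rpl10l, an autosomal copy of Rpl10 known from the testis, had 0 UMIs (unique molecular identifiers, 1 for each captured mRNA) in the called cells of each of the 3 libraries and was dropped. The 79 members left were 31 proteins of the small ribosomal subunit and 48 of the large subunit, among 20471 genes with at least 1 UMI, and each member had a UMI in each of the 3 libraries. The rule used no measured level other than a UMI count above 0.

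The libraries were 10x single-cell RNA libraries of untreated C57BL/6J mice of 2 months, 1 from females and 2 from males. Each was a pool of 6 lacrimal glands of 3 animals, digested with collagenase and dispase, passed through a dead cell removal column, and therefore gives 1 value for 3 animals. Sequencing core and day differed between the female library and the male ones, so that neither can be told apart from sex. Replicates in every test below were the 3 libraries, never the cells.

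A ribosome is built from ribosomal RNA and about as many proteins as there are members here, nearly all of them needed in a single copy per particle. Cells therefore make these proteins in step. Their mRNAs are short, abundant and stable, and most begin with a C followed by a run of pyrimidines, the 5′ terminal oligopyrimidine (TOP) tract, through which the growth-regulating kinase mTORC1 and the binding protein LARP1 control their translation. Acinar cells of the lacrimal gland make and secrete the proteins of the tear film and need many ribosomes to do so, although most of their own mRNA codes for a few tear products. A small set of ribosomal proteins has a second gene copy whose use differs between tissues, such as Rps27l beside Rps27, Rpl39l beside Rpl39 and Rpl3l beside Rpl3.

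The cells kept numbered 7652 in the female library and 5295 and 5397 in male libraries 1 and 2, after barcodes with at most 500 UMIs or 200 genes, with 15% or more mitochondrial UMIs, or called as doublets (5.14 to 7.79% of the barcodes within those limits) had been removed. They held 37642071 to 55390678 UMIs per library, with a median of 1788 to 3252 UMIs per cell. The called barcodes held 34.6 to 43.6% of all UMIs. Much of the rest lay in 55570 to 66339 uncalled barcodes of 500 to 2000 UMIs per library, in which 90.4 to 92.2% of UMIs came from tear-product genes, so free RNA of acinar type was plentiful. Pairs of libraries shared 12 to 18 called barcodes. The classes are called "like" since they rest on markers. Acinar-like cells (markers Lpo, Prom2 and Pigr) numbered 739, 1413 and 1869 in the female library and male libraries 1 and 2. Mural-like cells were the fewest, with 45 to 53 cells per library.

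For the members on which the results below turn, the bases around the start of the RefSeq transcript are shown from 20 before to 10 from the start on, 5′ to 3′ on the strand of the gene (GRCm38.p6, the build of the authors' mm10). Capitals mark a run of a C followed by 4 or more C or T whose C lies within 10 bases of the annotated start. Only the first such run, read from 10 bases before the start, is marked. Later ones stay in lower case, such as the run of 9 pyrimidines across the start of Rps27. Rps27 and Rps27l, a pair whose use differed between acinar and other cells, lie at chr3:90213639-90213668 on the minus strand and chr9:66946066-66946095 on the plus strand. Rpl39 lies at chrX:37085213-37085242 on the minus strand, and Rpl39l, found in fibroblast-like and mural-like cells, at chr16:10170208-10170237 on the plus strand. Rpl35 at chr2:39005122-39005151 (minus strand) rose most with acinar depth, whereas Rpl13 at chr8:123102330-123102359 and Rpsa at chr9:120127746-120127775 (both plus strand) rose least.
Rps27: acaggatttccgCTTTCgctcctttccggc
Rps27l: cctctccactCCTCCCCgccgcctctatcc
Rpl39: ccccccctaagctccgCCTCTagcgacttc
Rpl39l: cctagctcccaggCCTTTCCggatttccgg
Rpl35: gaagtcggccccgCCCTTTCCTCTTTCTCT
Rpl13: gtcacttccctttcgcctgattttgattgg
Rpsa: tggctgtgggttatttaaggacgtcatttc

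Both paralog pairs carried a pyrimidine run at the start shown, as did Rpl35, whereas no such run met the rule at the annotated starts of Rpl13 and Rpsa. The Rpl13 window does hold a run of 10 pyrimidines, which begins too far before the annotated start to meet the rule. A relation between such runs and the change with acinar depth was not tested. A second annotated start of Rps27l, at chr9:66946393-66946422, had no run either. Of the 59 members with a promoter window, 37 (62.7%) had such a run, against 33.3% of 27025 genes. The letters CCGGAAG, the core of an ETS-family site, stood on either strand in the promoter window (250 bases before to 50 after the start) of 25 of 59 members (42.4%), against 9.93% of all genes. TATAAA between 40 and 15 bases before the start was found in 0 of 59 members and in 2.41% of all genes. These matches describe letters in a window, and an annotated start can lie some bases from the one a cell uses.

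The members were among the most abundant mRNAs of the gland outside the tear products, and their levels spanned a wide range. Because each captured mRNA is counted once at its 3′ end, levels could be compared between genes without dividing by length. Rplp1, a protein of the stalk that recruits elongation factors, had the highest mean level over classes and libraries with 2039 CPM (UMIs scaled to a common total). Rpl13 (1964 CPM), Rps24 (1931), Rpl23 (1532), Rps14 (1415), Rpl32 (1381), Rps27a (1351), Rps12 (1350) and Rps29 (1303) were among the members that followed. Rps27a is made as a fusion with ubiquitin and is thus a source of free ubiquitin too. Low levels were a feature of the second copies. Rps27l had a mean of 243 CPM, Rpl39l had 335 UMIs in all, and Rpl3l, the copy known from heart and skeletal muscle, had 29 UMIs in all. Many ribosomal protein genes have processed pseudogenes, and reads shared with them may have been lost or assigned elsewhere in the counting, so the order of members is less certain than the change of 1 member between cells.

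The share of UMIs spent on ribosomal protein mRNAs depended first on whether the cell was an acinar cell, and then on what it was compared with. Acinar-like cells gave 1.96% ± 0.03 (SD, n = 3 libraries) of all their UMIs to the members, with 1.94, 2.00 and 1.95% in the female library and male libraries 1 and 2. Lymphoid-like cells gave 11.7%, myeloid-like cells 12.4%, duct-like cells 10.4%, endothelial-like cells 9.79%, fibroblast-like cells 7.84%, myoepithelial-like cells (MECs) 7.66%, Ltf+ epithelial-like cells 5.59% and mural-like cells 5.52%. The acinar share was below that of each of those classes in every library.

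Tear-product genes, which code for the secreted proteins, took 90.8% of acinar UMIs and 44.9 to 62.3% of those in the classes other than the acinar and Ltf+ ones. With tear-product and mitochondrial genes set aside, the acinar cells no longer stood low. The members then made up 24.8, 24.1 and 25.0% of the remaining UMIs in the same libraries. Lymphoid-like cells were higher in every library (31.0, 34.4 and 33.4%). Myeloid-like cells (22.4, 25.3 and 24.2%), duct-like cells (19.1, 23.6 and 23.9%) and endothelial-like cells (18.4, 23.4 and 24.7%) overlapped with the acinar range or lay just under it. Fibroblast-like cells (13.5, 15.8 and 17.3%), MECs (12.9, 16.04 and 15.8%) and mural-like cells (10.3, 14.5 and 15.0%) were lowest outside the acinar subsets. Outside the acinar subsets, lymphoid-like cells were thus highest on this second scale. Acinar, myeloid, duct and endothelial cells followed, whose means did not differ beyond their spread. Ltf+ cells (17.4, 16.9 and 17.1%) were lower and overlapped with fibroblasts, and MECs and mural cells were lower still by their means. No test was made of these shares, since the members were chosen with earlier results known. They are given with their spread.

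**Figure D1:**
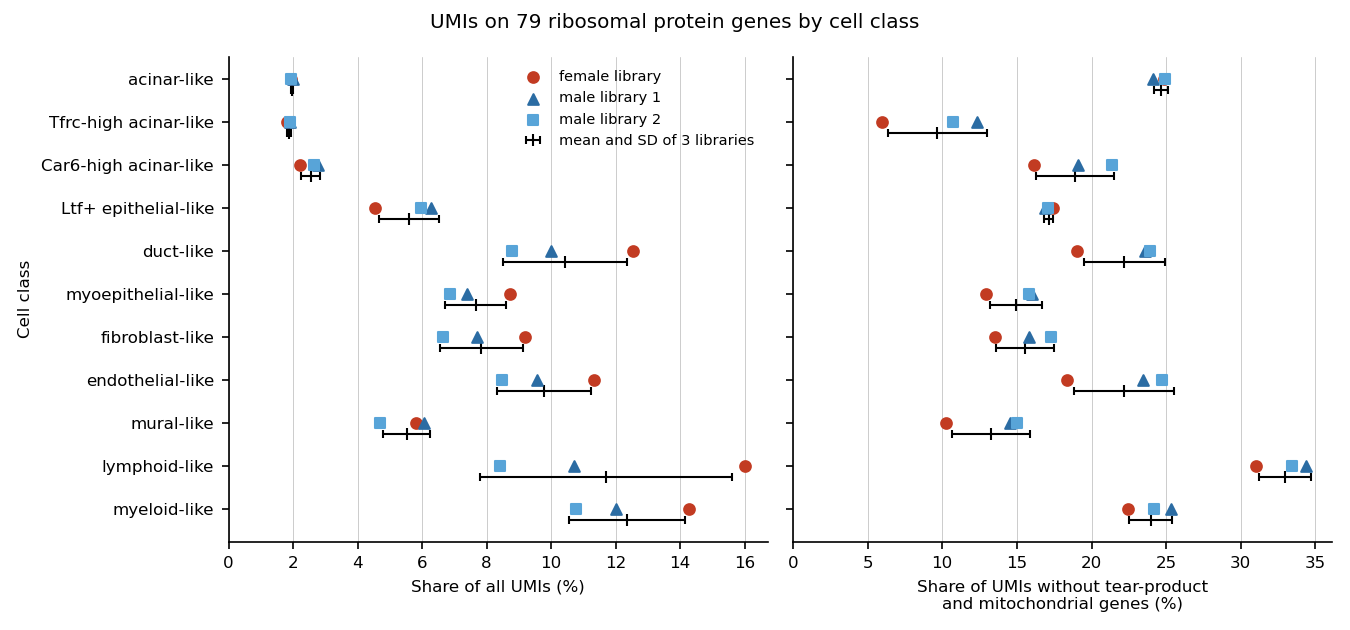
Share of UMIs on the 79 ribosomal protein genes in 11 cell classes, in percent of all UMIs and in percent of UMIs without tear-product and mitochondrial genes. Points are the 3 libraries and bars the mean and SD; the acinar-like share is near 2% on the first scale and 24.6% on the second.

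Free RNA bears on the first scale. The uncalled barcodes of 500 to 2000 UMIs gave 2.26, 2.40 and 2.46% of their UMIs to the members, close to the acinar share, so the addition of such RNA to a cell of another class lowers its share of all UMIs. When the profile of these barcodes, scaled to the tear-product UMIs of each class, was subtracted, the mean share of all UMIs rose to 20.2% in duct-like and endothelial-like, 22.6% in myeloid-like and 31.8% in lymphoid-like cells. For Tfrc-high, Car6-high and Ltf+ cells this subtraction also took tear mRNAs that the cells may make themselves, and its values there have no clear meaning.

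Within some lineages, named types differed without overlap between libraries, and within others they did not. Among lymphoid-like cells, whose types overlapped, the members held 35.1% ± 2.64 of the UMIs without tear and mitochondrial genes in ILC-like cells, 33.4% ± 3.12 in NK-like cells and 30.7% ± 2.43 in T-like cells. Among myeloid-like cells they held 31.2% ± 2.03 in conventional dendritic-like cells, 26.7% ± 3.53 in migratory dendritic-like cells, 25.2% ± 0.99 in monocyte-like cells, 22.7% ± 0.47 in macrophage-like cells and 20.9% ± 3.06 in mast-like cells. Conventional dendritic cells, which present antigen to T cells, had the highest mean of these, with 29.2 to 33.2% by library, a range that met that of migratory dendritic-like cells (22.9 to 29.9%) but not those of monocyte-like (24.2 to 26.2%) or macrophage-like cells (22.4 to 23.3%). Venous-like endothelium (27.3% ± 1.69) was above capillary-like endothelium (18.3% ± 3.36) in every library. The cells named by arteriolar markers are not ranked, since most came from a cluster whose leading genes included Prom2 and Rab25, genes of epithelial cells. Cells named by adventitial fibroblast markers (19.7% ± 1.40) were above parenchymal (14.0% ± 1.87) and Pdgfrl fibroblast-like cells (15.4% ± 1.92), which overlapped with each other. That name is mixed: 290 of the cells came from a cluster led by Cxcl13 and Cxcl9, with 3 adventitial markers raised and a low score (0.71). The other 191 came from a cluster led by Smpd3 and Pi16 (score 3.41). The 2 clusters were not compared.

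In acinar-like cells, the share of all UMIs differed little between the lowest and the highest mitochondrial shares, while the share of the mRNA left without tear products fell steeply with it. In cells with under 0.5% mitochondrial UMIs the members made up 31.7, 28.8 and 28.8% of the UMIs without tear and mitochondrial genes in the female library and male libraries 1 and 2. In cells with 8 to 15% they made up 12.1, 11.0 and 10.5%. Every library fell through each step between. Of all UMIs, the members held 2.01, 2.00 and 1.92% in the first bin and 1.99, 1.94 and 1.88% in the last, with a dip between that was deepest in the female library (1.49% in cells with 2 to 4% mitochondrial UMIs). Tear-product genes fell over the same bins from 93.5, 92.7 and 93.0% to 73.2, 71.8 and 71.3% of all UMIs, and the median depth of the last bin was 3219 to 4546 UMIs, so tear share, depth and mitochondrial share moved together. Fewer ribosomal protein mRNAs and more mRNA of other genes cannot be told apart by shares.

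To separate depth from mitochondrial share, acinar-like cells were divided within each library into 3 equal groups by UMIs (shallow, middle, deep), and each of these at its median mitochondrial share (low, high). Low and high groups differed little in depth in the female library in the middle group (median 12581 and 12267 UMIs) but more in male library 1 (12159 and 6695) and male library 2 (8460 and 10247). On UMIs without tear and mitochondrial genes, the share in the middle group was 31.2, 20.5 and 30.0% in low cells and 12.8, 13.3 and 18.1% in high cells, so the groups did not overlap. In the deep group it was 29.7, 28.8 and 28.4% against 23.5, 26.2 and 26.8%, and in the shallow group 20.8, 15.9 and 21.5% against 14.7, 11.6 and 11.0%. As log2 ratios of high to low, the middle group gave −1.28, −0.63 and −0.73, the deep group −0.34, −0.14 and −0.08 and the shallow group −0.50, −0.46 and −0.97. Of all UMIs, the high and low middle groups held 1.83% and 2.11% on average.

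**Figure D2:**
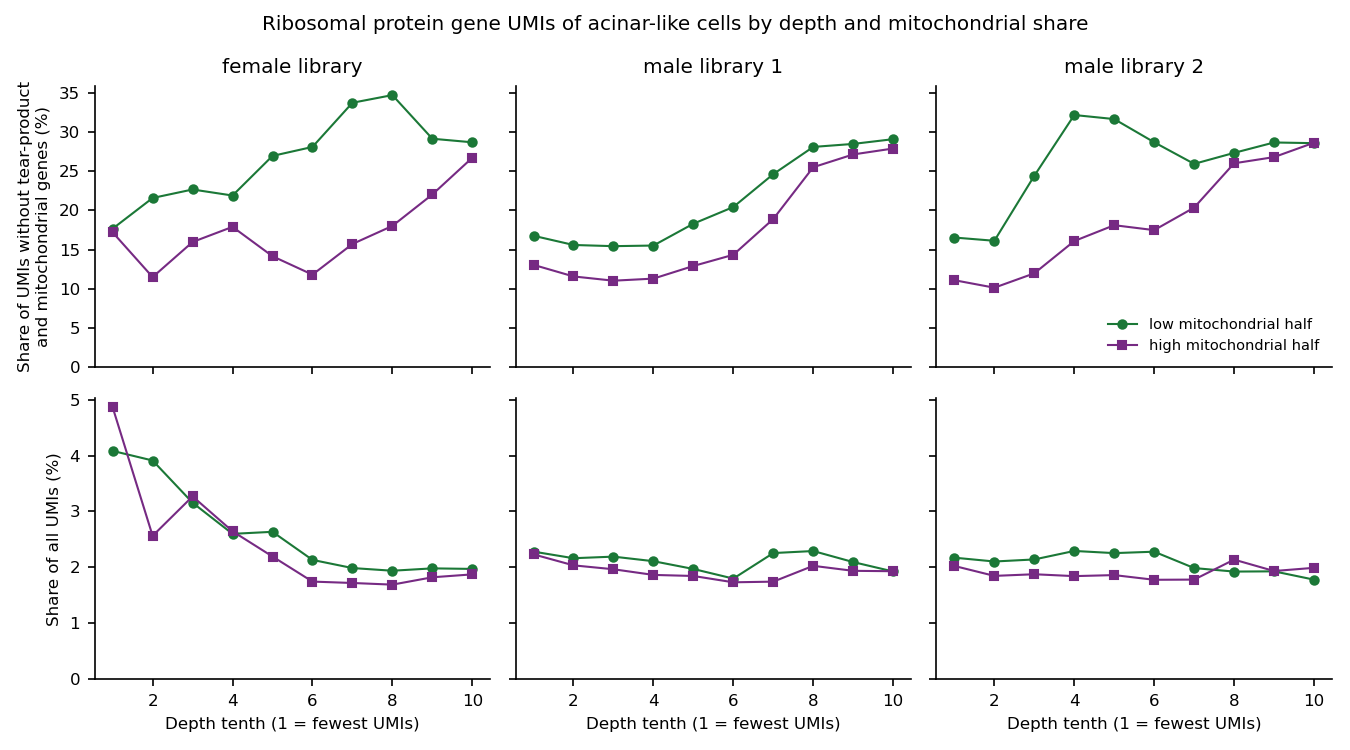
Ribosomal protein share of acinar-like cells in 10 equal depth groups per library, with cells of low and high mitochondrial share drawn apart, in percent of UMIs without tear-product and mitochondrial genes (upper) and of all UMIs (lower). The high-mitochondrial cells of middle depth lie below the low ones in all 3 libraries on the upper scale, while the lower scale stays near 2% from middle depth on. In the middle of the 3 depth groups of the text, which are wider than the 10 drawn here, the upper-scale shares are 12.8 to 18.1% against 20.5 to 31.2%.

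Gene by gene, nearly all members rose from shallow to deep acinar-like cells, when a gene is compared with the bulk of the other genes. Summed UMIs per library were tested with edgeR's quasi-likelihood test, library as block, and a gene is called at a Benjamini-Hochberg adjusted p under 0.05 over all genes tested. Rpl39l and Rpl3l did not pass the filter on low counts among acinar states, and Rpl3l did not among classes. Of 77 members tested, 76 were called higher and 0 lower, where 21.8% of 6787 genes were called higher and 12.2% lower. The median member log2 fold change was 1.37, and that of all genes −0.05. These values use edgeR's trimmed mean scaling. With total UMIs as library size, in which the tear products of deep cells weigh in full, the direction turned: the member median was −0.24, with 27 members called lower, and the median of all genes was −1.58, with 78.4% of genes called lower. The members thus rose relative to most genes while they fell slightly relative to all UMIs. Only Rpl13 was not called (0.49 ± 0.20 SE, adjusted p = 0.0575). The 4 RNA quality genes (Gm42418 and AY036118, which hold ribosomal RNA reads, and the nuclear RNAs Gm26917 and Malat1) were all called lower in deep cells, with a median of −2.84, and their part in the result was not tested.

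A second fit, with the members' own summed UMIs as library size, asked which members departed from the others. In deep cells 10 members lay above the rest (1.11% of all genes did) and 5 below (67.8%). Rps27l (0.51 ± 0.16), Rpl35 (0.50 ± 0.16) and Rps7 (0.45 ± 0.13) were the members farthest above. Rpl13 (−0.83 ± 0.20), Rpsa (−0.67 ± 0.15) and Rpl8 (−0.62 ± 0.21) were farthest below, with edgeR adjusted p of 0.00154, 0.000795 and 0.0123. Rpl13 and Rpl8 were below in the male libraries but not in the female one (0.06 for Rpl13 and 0.36 for Rpl8), and Rpsa was below in all 3 libraries (−0.31, −0.95 and −0.73). Rpsa is the small-subunit protein also known as the laminin receptor.

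In middle-depth cells, a high mitochondrial share went with lower ribosomal protein mRNA for most members. The part of free RNA, which low middle cells resembled in the female library and male library 2, was not tested. Called lower were 74 of 77 members and called higher 0, where 9.67% of genes were called lower and 3.55% higher. The member median was −1.38 and that of all genes 0.14. With total UMIs as library size the member median was −0.24, 7 members were called lower and 1 higher, and the median of all genes was 1.14. Rps27 (−1.84 ± 0.33), Rpl35 (−1.81 ± 0.31), Rps28 (−1.77 ± 0.31) and Rps27l (−1.77 ± 0.31) fell most, each in all 3 libraries. Not called were Rpl13 (−0.35 ± 0.29), Rpl4 (−0.68 ± 0.27) and Rpl8 (−0.69 ± 0.29). The count fell to 30 without male library 2, to 45 with a mitochondrial limit of 5% and to 41 without the library block.

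At other depths the same division gave no call. In the deep group edgeR called 0 of 77 members, with 0 at an unadjusted p under 0.05, a median of −0.40 and 1 gene called higher in all (0.0147% of genes higher and 0% lower). DESeq2 called 0 as well. In the shallow group edgeR called 0 members, with 64 at an unadjusted p under 0.05 (11.8% of genes) and a median of −0.85 (0% of genes higher and 0.0737% lower). DESeq2 called 26 members lower there. It gave an adjusted p to only 998 of 6787 genes, and 165 of those were called lower (2.43% of all 6787 genes). The 2.43% is therefore a low yardstick for the members. Without the female library edgeR called 41 members. The difference between the middle and the deep effect was tested as an interaction: edgeR called 0 members (0.0737% of genes), with 61 at an unadjusted p under 0.05 (9.68% of genes) and a median difference of −1.005. The effect is therefore not shown to differ between middle and deep cells, and the shallow group was not compared with either.

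Rpl13, a large-subunit protein, made up a growing part of the member UMIs as the others fell. In low middle cells it held 2.27, 3.95 and 2.21% of member UMIs in the female library and male libraries 1 and 2, and in high middle cells 5.12, 6.62 and 4.54%. In CPM it went from 514 to 936, from 771 to 1205 and from 469 to 831, and the groups did not overlap on either scale. Relative to the other members it was higher by 0.98 ± 0.28 (log2, edgeR adjusted p = 0.00906).

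Rpl4, another large-subunit protein, showed the same direction with 0.442, 0.548 and 0.377% of member UMIs in low and 0.691, 0.755 and 0.666% in high cells (relative log2 0.63 ± 0.24, edgeR adjusted p = 0.0339). Rpsa had 1.06, 1.31 and 1.12% in low and 1.55, 2.09 and 1.49% in high cells (0.55 ± 0.21, edgeR adjusted p = 0.0311). These were the 3 members called above the others (55.6% of all genes were), and 0 were called below (0.0884%, with 7 members of either sign at an unadjusted p under 0.05). Rack1, a scaffold protein of the small subunit outside the name rule, moved with them (0.63). In the shallow group Rpl13 held 2.34, 5.18 and 3.39% in low and 2.55, 7.24 and 7.89% in high cells, and in the deep low group 2.28, 2.38 and 2.27%. Across 77 members, longer coding sequences went with a higher relative value in high-mitochondrial cells (Spearman's rho 0.41 in the middle and 0.46 in the shallow group, 0.13 in the deep group, and −0.28 for deep against shallow cells). Transcript length gave 0.26 and 0.14 and exon number 0.28 and 0.31 in the middle and shallow groups. These are correlations across genes of the same libraries, given without a test, for 3 gene features in 13 comparisons and the middle-deep difference.

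Tfrc-high acinar-like cells (93, 209 and 230 cells), named for the transferrin receptor, had the lowest share of the classes outside the tear and mitochondrial genes, with 5.96, 12.4 and 10.7%. They were also shallow, with median depths of 2693, 1514 and 1117 UMIs against 12581, 8836 and 9192 in the other acinar-like cells. Among those, shallow cells of high mitochondrial share had 14.7, 11.6 and 11.0%, which overlapped with the Tfrc-high range. The members held 1.80, 1.91 and 1.90% of all UMIs, just under the other acinar cells. Of 78 members tested, 77 were called lower and 0 higher than in the other acinar-like cells (17% of 9480 genes were lower and 9.38% higher), with a member median of −1.90 against −0.25 for all genes. Rps15a (−2.35 ± 0.22), Rpl15 (−2.26 ± 0.21) and Rpl32 (−2.25 ± 0.21) fell most. Under total UMI scaling the median was −0.07 and only Rpl13 was called, higher (0.59), while the median of all genes moved to 1.48. The 4 RNA quality genes were all higher in these cells (median 1.92), and the cells had 4.35 to 6.31% mitochondrial UMIs. The part of depth, of these genes or of mitochondrial share in the result was not tested.

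Relative to the other members, Rpl13 (0.64 ± 0.15), Rpl8 (0.54 ± 0.16) and Rps15 (0.46 ± 0.16) were called above in Tfrc-high cells (52.7% of genes were) and Rps15a below (−0.45 ± 0.15, 0.0422% of genes). Rpl13 made up 3.47, 5.10 and 4.79% of member UMIs there, against 2.69, 3.03 and 2.80% in the other acinar-like cells, so the groups did not overlap. The Rpl13 shares given above for shallow and for middle acinar-like cells of high mitochondrial share did overlap with those of Tfrc-high cells. Rpl13 and Rpl8 were also among the members farthest below the others in deep against shallow cells.

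Car6-high acinar-like cells (61, 106 and 155 cells), which carry carbonic anhydrase 6, a secreted enzyme, differed from the other acinar-like cells in opposite directions on the 2 scales. Their share was 2.22, 2.77 and 2.66% of all UMIs, above 1.94, 2.00 and 1.95% in the others. Without tear and mitochondrial genes it was 16.2, 19.1 and 21.4%, below 24.8, 24.1 and 25.0%. The groups overlapped on neither scale. Called lower were 36 of 78 members and called higher 0 (3.63% and 3.7% of genes), with a median of −0.62 against −0.17 for all genes. This count rests on single libraries: it was 72 without the female library, 0 without male library 1 and 21 without male library 2. Scaled by total UMIs, the median turned to 0.39, with 1 member called, Rpl35a, which was higher (0.77). By edgeR, 0 members were called above or below the others (9.4% and 0.58% of genes were), with 1 member at an unadjusted p under 0.05.

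Ltf+ epithelial-like cells, marked by lactoferrin and surfactant protein D, gave a larger share of all their UMIs to the members than acinar-like cells and a smaller share of the UMIs without tear and mitochondrial genes. The share was 4.53, 6.26 and 5.96% of all UMIs and 17.4, 16.9 and 17.1% without tear and mitochondrial genes. Called lower were 65 of 78 members and called higher 0 (16.1% and 16.7% of genes), with a median of −0.73. Scaled by total UMIs, 77 were called higher, with a median of 1.53 beside 2.16 for all genes, of which 82.8% were called higher too. The count of members called lower was 23 without male library 1 and 28 without male library 2.

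Within the Ltf+ cells, 6 members were called above the others (40% of genes) and 5 below (4.01%). Rps27 (0.63 ± 0.15), Rpl35a (0.53 ± 0.15) and Rpl22 (0.47 ± 0.16) were highest. Rps27l (−0.61 ± 0.19), Rplp0 (−0.58 ± 0.16) and Rps4x (−0.44 ± 0.15) were lowest, each in all 3 libraries.

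Duct-like cells (markers Wfdc2, Krt5 and Krt14) matched acinar cells in most members once scaled to the bulk of genes, and stood out by a few. Of 78 members, 2 were called higher and 16 lower, against 28.6% and 23.4% of all genes, with a median of −0.19. This direction turned with total UMIs as library size (77 called higher, median 2.42 beside 2.65 for all genes), where 86.6% of all genes were higher. DESeq2 was mixed, with 16 members higher and 10 lower (33.7% and 17.6% of genes). The 2 called higher were Rps27 (0.87 ± 0.17) and Rps19 (0.58 ± 0.19). Rps19, a small-subunit protein whose gene is mutated in Diamond-Blackfan anemia, held 1.57, 1.51 and 1.504% of member UMIs in duct-like and 0.986, 0.811 and 0.847% in acinar-like cells. The groups did not overlap (relative log2 0.80 ± 0.16, edgeR adjusted p = 8.02e-05). The lower count was 5 without male library 1 and 7 without male library 2.

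Relative to the other members, 8 were called above in duct-like cells (32.6% of genes) and 7 below (16.5%). The stalk showed both directions. Rplp2 held 1.13, 0.877 and 0.910% of member UMIs in duct-like and 0.780, 0.676 and 0.628% in acinar-like cells (0.48 ± 0.14, edgeR adjusted p = 0.00547), whereas Rplp0, the protein on which Rplp1 and Rplp2 sit, was below the others (−0.63 ± 0.16). Rpl32 (−0.59 ± 0.15), Rpl41 (−0.55 ± 0.16) and the X-linked Rpl10 (−0.50 ± 0.16) were below as well, each in all 3 libraries.

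In MECs, the contractile cells around the acini, most members were lower than in acinar-like cells when compared with the bulk of genes (the main scaling). Of all UMIs the members held more in MECs, 7.66% against 1.96% on average. Called lower were 68 of 78 members and called higher 1, against 24.4% and 28.7% of all genes, with a median of −0.80. Under total UMI scaling 77 were higher, with a median of 2.01 beside 2.79 for all genes, of which 84.2% were called higher. The 1 higher member was Rps27 (0.49 ± 0.17). Relative to the others 11 members were above (48.9% of genes) and 8 below (9.55%). Rplp0 held 1.13, 1.202 and 1.23% of member UMIs in MECs and 1.92, 2.30 and 2.24% in acinar-like cells, without overlap (−0.86 ± 0.16, edgeR adjusted p = 1.6e-05). Rpl31 was above the others (0.68 ± 0.16), and Rpl32 (−0.65 ± 0.15) and Rps24 (−0.45 ± 0.14) were below.

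Among the non-epithelial classes, each compared with the mean of the others, immune cells were high and fibroblasts low in ribosomal protein mRNA. In lymphoid-like cells 76 of 78 members were called higher and 0 lower (20.5% and 14.4% of genes), with a median of 1.06. In myeloid-like cells 77 were called higher and 1, Rpl39l, lower (26.3% and 13.4%), with a median of 0.87. With total UMIs as library size the medians were 0.44 and 0.52, with 33 and 55 members called higher, beside −0.48 and −0.25 for all genes. In fibroblast-like cells 62 were called lower and 1, Rpl39l, higher (10.9% and 24.9%), with a median of −0.52, and with total UMIs 3 were lower with a median of −0.26. That fibroblast count was 11 without male library 1 and 16 without male library 2, and with free RNA of 10 to 100 UMI barcodes subtracted 0 members were called lower by edgeR and Rpl39l alone higher.

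Endothelial-like cells lay between, with 3 members, Rps6 and Rps14 among them, called higher and 1, Rpl39l, lower (19.6% and 8.42% of genes) and a median of −0.01. Their higher count was 8 without the female library. Without male library 1 only Rps6 was called higher and only Rpl39l lower, and without male library 2 only Rpl39l was called. The lymphoid and myeloid counts were 73 to 77 with any library left out. Free-RNA subtraction with the 10 to 100 UMI barcodes left 33 lymphoid and 37 myeloid calls higher. These comparisons share classes and are not independent.

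**Figure D3:**
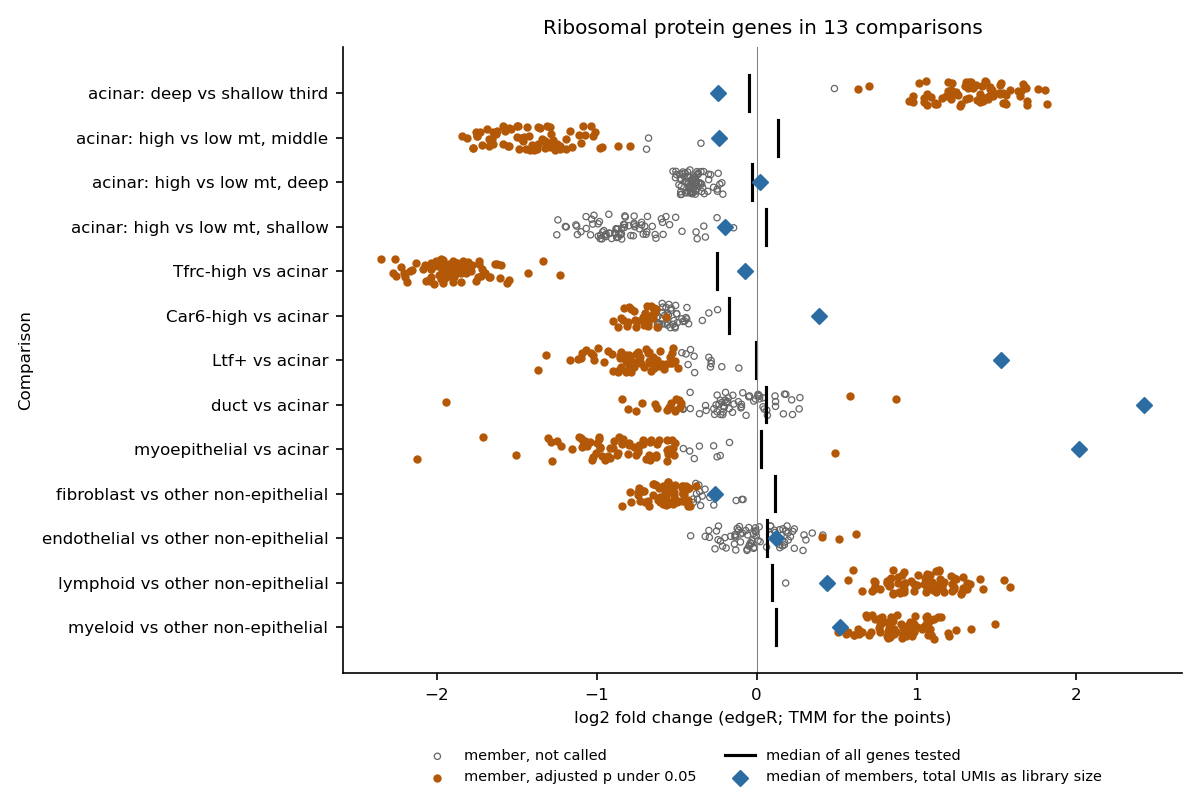
log2 fold changes of the members except Rpl39l and Rpl3l in 13 comparisons, by edgeR with trimmed mean scaling. Filled points have an adjusted p under 0.05, the black line is the median of all genes tested, and the blue diamond is the members' median with total UMIs as library size, which changes sign against the main scaling for acinar depth, mitochondrial share in deep cells, Car6-high, Ltf+, duct, MEC and endothelial comparisons.

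The immune classes also differed from the other non-epithelial cells in which members they favored. In lymphoid-like cells 6 members lay above the rest (5.27% of genes) and 12 below (51.6%). Rpl12, a large-subunit protein at the base of the stalk, held 1.79, 1.53 and 1.44% of member UMIs there and rose most (1.59 ± 0.15, and 0.52 ± 0.12 relative to the others). Rps15a held 1.99, 2.06 and 2.14% (0.49 ± 0.11 relative). Rps24 (0.35 ± 0.11) and Rpsa (0.34 ± 0.12) were also above. Rps27l (−0.87 ± 0.17) and Rpl31 (−0.61 ± 0.14) were below in all 3 libraries.

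In myeloid-like cells 4 members lay above (10.2% of genes) and 7 below (46.3%). Rps29, a small zinc-binding protein of the small subunit, held 2.85, 2.55 and 2.40% of member UMIs, and other classes had means of 1.46 to 1.94%. Within the class the share was high in macrophage-like cells (2.95, 2.82 and 2.65%) and migratory dendritic-like cells (2.39, 2.36 and 2.45%). Conventional dendritic-like (1.92, 2.10 and 2.08%) and monocyte-like cells (1.95, 2.00 and 1.79%) overlapped with T-like cells (1.93, 2.02 and 1.67%). No library of another class reached the range of the myeloid class as a whole (relative log2 0.57 ± 0.11, edgeR adjusted p = 8.36e-05). Rps28 (0.42 ± 0.12), Rps26 (0.34 ± 0.12) and Rps9 (0.29 ± 0.11) were also above, all of the small subunit. Rpl9 (−0.40 ± 0.12) and Rpl13a (−0.36 ± 0.12), of the large subunit, were below.

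Endothelial-like cells favored Rps6, the small-subunit protein that S6 kinase phosphorylates when growth signals are on, though not in each of their types. It held 1.15, 0.979 and 1.10% of member UMIs there and 0.774, 0.756 and 0.651% in acinar-like cells, and against the other non-epithelial classes it was above by 0.61 ± 0.11 (edgeR adjusted p = 4.13e-05). Venous-like cells (1.32, 1.05 and 1.17%) and capillary-like cells (1.08, 0.898 and 1.18%) were high, whereas cells named by arteriolar markers had 0.810, 0.787 and 0.769%, within the range of fibroblast and lymphoid types. In all, 5 members were above (19% of genes) and 3 below (7.58%). Rps14 (0.50 ± 0.11) and Rpl5 (0.40 ± 0.13) were also above, and Rps26 (−0.43 ± 0.13) and Rpl21 (−0.34 ± 0.12) below. In fibroblast-like cells 4 members were above (47.8%) and 1 below (3.8%). These were Rpl39l, Rps2 (0.43 ± 0.12), Rps27l (0.42 ± 0.15) and Rps4x (0.39 ± 0.11), and Rpl27 (−0.32 ± 0.12).

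Over the 13 comparisons there were 109 such departures in 53 members, and 25 members tested had none. The count depended on the libraries: 156 without the female library, 22 without male library 1 and 26 without male library 2. Of the 109, 97 were also called without the female library, and 15 were called in every fit that left out a library. These 15 were Rps27 above and Rps27l below in both duct-like cells and MECs, Rps19 above in duct-like cells, Rpl31 above and Rpl32 and Rplp0 below in MECs, Rpl12 and Rps15a above and Rpl31 and Rps27l below in lymphoid-like cells, Rps29 above in myeloid-like cells, Rps6 above in endothelial-like cells and Rpl39l above in fibroblast-like cells. Across members, the levels of pairs of classes had Spearman's rho of 0.81 to 0.98, over levels that range widely between genes within each class. The small subunit's members held 40.6 to 45.4% of member UMIs by class.

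**Figure D4:**
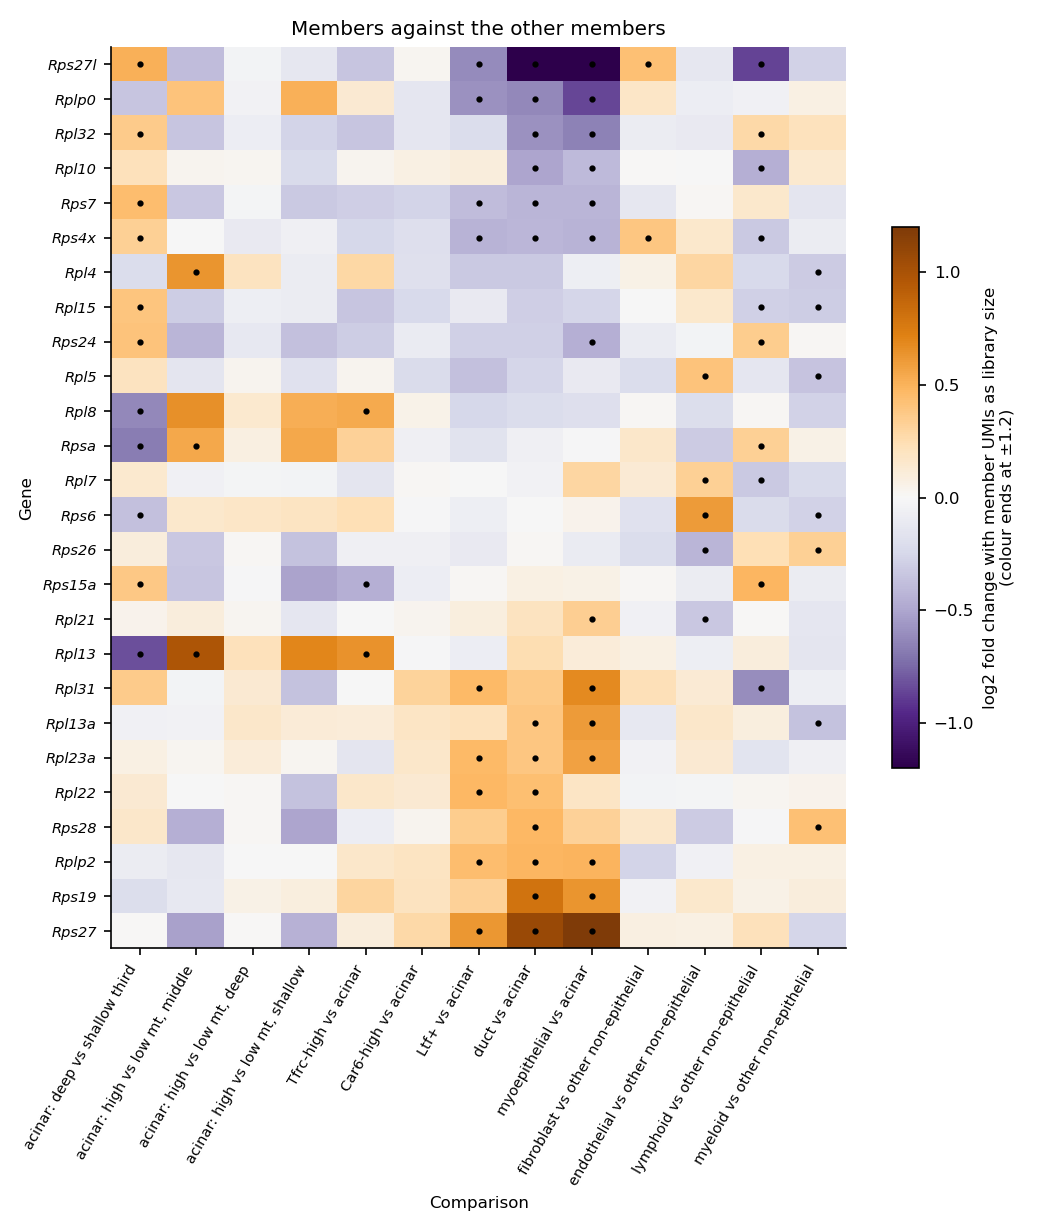
log2 fold change relative to the other members for 26 members called in at least 2 of 13 comparisons, Rpl39l and 1 other such member left out. Color runs from −1.2 to 1.2 and dots mark an edgeR adjusted p under 0.05; Rps27 (up to 1.33, MECs) and Rps27l (down to −1.71, duct-like cells) are the members that lie beyond the color range.

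The pair Rps27 and Rps27l changed order between cell types. Both encode the zinc-binding protein eS27 of the small subunit, and Rps27l is known as a target of p53. In acinar-like cells Rps27l exceeded Rps27: it held 1.11, 0.836 and 0.879% of member UMIs in the female library and male libraries 1 and 2, and Rps27 held 0.490, 0.559 and 0.546%. In duct-like cells the order was the reverse, with Rps27l at 0.290, 0.274 and 0.298% and Rps27 at 1.13, 1.22 and 1.00%. Acinar and duct values did not overlap for either gene.

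MECs resembled duct-like cells, with Rps27l at 0.386, 0.385 and 0.416% and Rps27 at 1.44, 1.30 and 1.29% of member UMIs. Ltf+ cells were intermediate, with 0.655, 0.591 and 0.601% for Rps27l and 0.789, 0.878 and 0.8004% for Rps27. Lymphoid-like cells had the least Rps27l (0.117, 0.175 and 0.198%), with Rps27 at 1.28, 1.14 and 1.15%. Rps27l was likewise under the acinar range in fibroblast-like (0.303, 0.327 and 0.353%), myeloid-like (0.170, 0.238 and 0.261%) and endothelial-like cells (0.206, 0.246 and 0.277%).

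Relative to the other members, Rps27l was lower in duct-like than acinar-like cells by −1.71 ± 0.19 (log2, edgeR adjusted p = 2.19e-09) and in MECs by −1.25 ± 0.19 (7.67e-07), and Rps27 was higher by 1.07 ± 0.15 (2e-07) and 1.33 ± 0.15 (1.59e-09). In every library each of these 4 values had the same sign. On the scale of all UMIs the mean level of Rps27l by class was 180 to 342 CPM, so its share fell where the other members rose. With trimmed mean scaling its log2 change in duct-like cells was −1.94 ± 0.22, and with total UMIs as library size 0.71. Uncalled barcodes of 500 to 2000 UMIs had the acinar order, with Rps27l at 1.18, 0.899 and 0.876% and Rps27 at 0.593, 0.648 and 0.616%, so free RNA adds Rps27l to the other classes. Rps27rt, a retrocopy of Rps27 outside the name rule that may share its reads, rose too in duct-like cells (1.12) and MECs (1.94).

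Rpl39l, the copy of Rpl39 best known from the testis, had most of its UMIs in fibroblasts and a similar level in the few mural-like cells. Of its 335 UMIs, 239, 48 and 16 came from fibroblast-like cells of the female library and male libraries 1 and 2, or 44.0, 42.1 and 18.2 CPM. Mural-like cells had 8, 1 and 2 UMIs (47.7, 13.2 and 21.6 CPM). Few came from lymphoid-like (7, 0 and 0), endothelial-like (5, 1 and 0) or myeloid-like cells (4, 0 and 2). Acinar-like cells had 1 UMI in all, and MECs 1.

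In Tfrc-high, Car6-high, Ltf+ and duct-like cells Rpl39l had 0 UMIs over the 3 libraries, which allows up to 1.94, 1.204, 0.723 and 0.566 CPM (3 counts over the group, counting error only). Against the mean of the other non-epithelial classes the fibroblast value was higher by 3.55 ± 0.35 (edgeR adjusted p = 8.45e-10), in all 3 libraries. That mean includes mural-like cells, whose level overlapped with that of fibroblasts, and classes at or near 0. The difference is therefore not one from mural-like cells. Among the fibroblasts, parenchymal cells had 177, 32 and 9 UMIs and cells named by adventitial markers 47, 14 and 3. Rpl39, which is X-linked, held 1.37, 1.65 and 1.44% of member UMIs in fibroblast-like and 1.02, 0.984 and 1.02% in acinar-like cells, so the common copy remained far above the second one. Rpl3l had 2, 12 and 15 UMIs in the 3 libraries, 0, 11 and 13 of them in acinar-like cells, too few to compare.

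**Figure D5:**
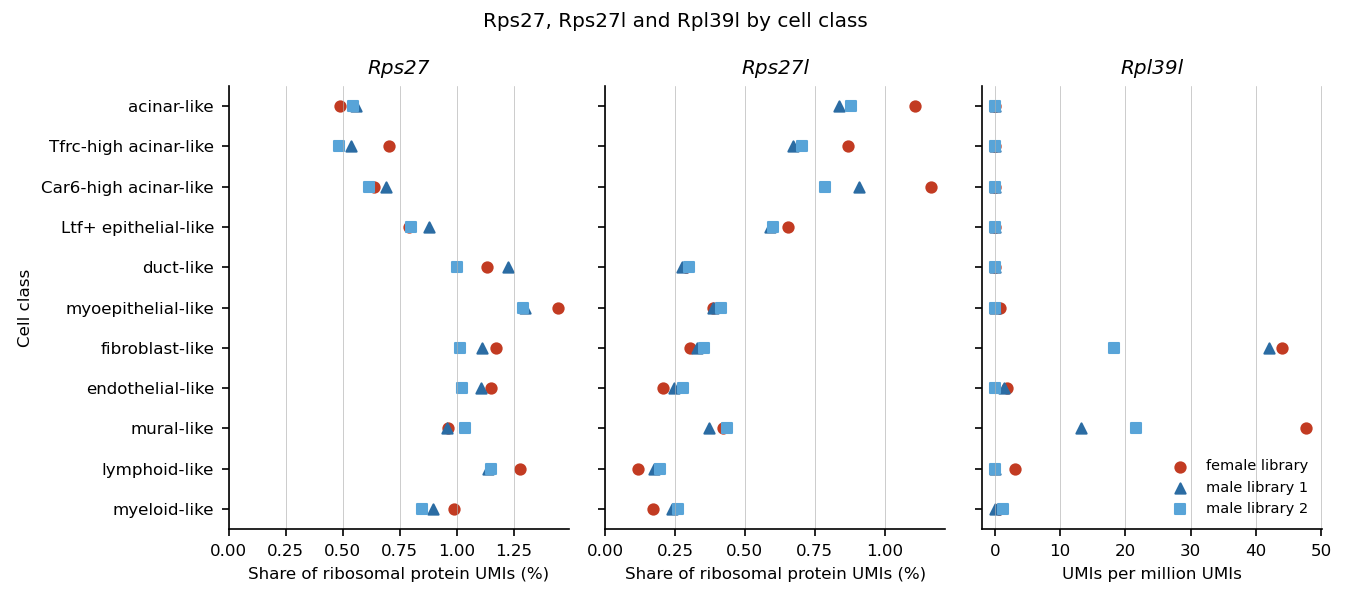
Rps27 and Rps27l in percent of member UMIs and Rpl39l in CPM, by cell class, with a point for each of the 3 libraries. Rps27l lies above Rps27 in acinar-like cells and below it in duct-like cells, MECs and the non-epithelial classes, and Rpl39l stands out in fibroblast-like cells (18.2 to 44.0) and mural-like cells (13.2 to 47.7).

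A pair of paralogs outside the name rule was, like Rps27l, low in duct-like cells and MECs. Rpl22l1, the copy of Rpl22, was lower relative to the members in duct-like cells (−1.37), MECs (−1.02), Ltf+ cells (−0.79) and myeloid-like cells (−0.88) and higher in fibroblast-like cells (0.61) and deep acinar-like cells (0.65). Rpl36al, the copy of the X-linked Rpl36a, was lower in duct-like cells (−1.43, edgeR adjusted p = 1.65e-09) and MECs (−1.30).

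Other genes of the translation apparatus were mostly called in the same direction as the members. Their counts are read against the shares of all genes given above, 21.8% higher and 12.2% lower for depth, 9.67% lower in high-mitochondrial middle cells, 17% lower in Tfrc-high, 23.4% lower in duct-like, 20.5% higher in lymphoid-like and 26.3% higher in the myeloid class. Of 39 translation factors, 23 were called higher and 0 lower in deep against shallow acinar-like cells (median 0.83), 13 lower and 0 higher in high-mitochondrial middle cells (−0.36), and 33 lower and 1 higher in Tfrc-high cells (−1.30). In duct-like cells 27 were called lower and 0 higher (−0.73), more of the list than among the members. Called higher were 22 of them in the lymphoid class and 26 in the myeloid class (0.49 in both), where 0 and 1 were lower. Under total UMI scaling the medians for depth, Tfrc-high and duct were −0.73, 0.53 and 1.93, and for high-mitochondrial middle cells and lymphoid-like cells 0.72 and −0.13, so these directions turn with the scaling.

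Mitochondrial ribosomal proteins, which are coded in the nucleus and form a separate ribosome, were higher in deep cells (51 of 68, 0 lower, median 1.02) and lower in high-mitochondrial middle cells (28 of 68, 0 higher, −0.85) and Tfrc-high cells (55 of 74, 0 higher, −1.38). Under total UMI scaling these medians were −0.52, 0.19 and 0.40, of the opposite sign. Ribosome biogenesis factors showed their largest number of calls in lymphoid-like cells (16 of 32 higher, 0 lower, median 0.66) and in the myeloid class (12 higher, 0 lower, 0.36), with 8 of 28 higher and 2 lower in deep acinar-like cells. The lymphoid and myeloid medians of that list were 0.08 and −0.02 under total UMI scaling. Of the mTORC1 and TOP regulators, 6 of 17 were higher and 2 lower in deep cells, 6 of 16 lower and 2 higher in Tfrc-high cells, and 10 of 16 lower and 1 higher in duct-like cells. These lists were described by counts only.

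Female and male values are given side by side, with no test, since there was 1 female library. Members took 6.13% of all kept UMIs in the female library and 3.28 and 2.86% in the male libraries, which held more acinar-like cells. Within the member UMIs a few genes were set apart in every class. Rpl23a held 0.863% in the female library and 0.541 and 0.462% in male libraries 1 and 2, and Rpl5 held 0.899, 0.611 and 0.634%, and each was above both male libraries in 11 of 11 classes. Rpl35 held 0.426, 0.626 and 0.618% and Rpl18 1.05, 1.29 and 1.28%, and each was below both in 11 of 11 classes. Rplp0 held 1.37, 1.66 and 1.68% and was below both in 9 of 11 classes.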

How the data were processed

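Single-cell suspensions of lacrimal glands were sequenced as 3 10x 3′ libraries. The authors aligned and counted reads with Cell Ranger 6.1.2 on mm10 (per the labels) and deposited raw UMI counts per gene and barcode, for all barcodes and for called cells; the annotation release is not given in the sources used here. Counts are not corrected for free RNA.

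Kept cells had over 500 UMIs, over 200 genes and under 15% mitochondrial UMIs, and doublets were removed with scrublet in scanpy 1.11.5 at 0.8% per 1000 barcodes. Libraries were integrated with Seurat 5.3.0 (SCTransform, 3000 features, 30 dimensions, resolution 1). Left out of the clustering features were 437 genes, so the clusters were formed without the members. They were ribosomal protein genes and pseudogenes, other ribosome-related genes, and tear-product, mitochondrial, hemoglobin and sex-linked genes. The lists counted beside the members were left out too. Clusters were named from fixed markers where at least 3 were raised; 210 epithelial cells led by Cybb, Cd74 and H2-Ab1, and mast-like and dendritic-like clusters counted as myeloid-like, were decided after the clusters had been seen. The members, gene lists, tests and named-gene rule (the 10 highest members, in each comparison up to 4 called members per direction and the 3 farthest above and below the others, paralogs, stalk, Rpsa, Rps27a and X-linked members) were chosen with earlier results of these data known; a few more members are named because they were called relative to the others. Single values of 2 members are not reported here. Lists counted beside the members were translation factors, ribosome biogenesis factors, mitochondrial ribosomal proteins, mTORC1 and TOP regulators and 4 RNA quality genes.

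UMIs were summed per library and class, or acinar state without mitochondrial genes, and tested with edgeR 4.0.16 (filterByExpr, TMM, quasi-likelihood, library as block, Benjamini-Hochberg over all genes). DESeq2 1.42.0, other library sizes, filters, doublet and mitochondrial limits, free-RNA subtraction and leaving out each library were tried. The library block pairs arms from the same suspension; sex has 1 female library and no test. The scripts were tested on simulated data. There were 3 libraries of pooled animals, and the block takes out the spread between them. The p-values thus measure how far differences between classes or states vary from library to library. All classes were in 1 fit and all acinar states in 1 fit, and each fit shares its estimate of that spread. Variation between single animals is not measured. Intervals and limits of a count of 0 cover counting error only.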

Additional observations from a re-analysis of the deposited data

Results flagged for a closer look

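In deep acinar-like cells, the log2 ratio of the members' share of all UMIs between cells of high and low mitochondrial share was −0.10 in the female library and 0.01 and 0.12 in male libraries 1 and 2, so the female library moved one way and both male libraries the other. The number of member UMIs per cell in Ltf+ epithelial-like against acinar-like cells gave log2 ratios of 0.54 in the female library and −0.80 and −0.63 in the male libraries. Neither difference between the groups was tested, and sex, sequencing core and day cannot be told apart. Uncalled barcodes of 500 to 2000 UMIs, which were not used as cells, gave 2.26, 2.40 and 2.46% of their UMIs to the members.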

How the results depend on the processing

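Depth and scaling set the limits. Mural, Tfrc-high and Car6-high classes hold few cells, and shares cannot separate fewer member mRNAs from more mRNA of other genes. Classes other than acinar hold free RNA, and from acinar-like cells and their states it was not subtracted. The counts of members called that follow are read against the main values of the report. With total UMIs as library size they were 27 lower (acinar depth), 7 lower (mitochondrial share, middle depth), 1 higher (Tfrc-high), 1 higher (Car6-high), 77 higher (Ltf+, duct and MEC), 3 lower (fibroblast) and 33 higher (lymphoid). Log2 fold changes that turned sign under that setting were Rpl12 0.19, Rpl15 0.14, Rps18 0.17 and Rps7 0.11 in Car6-high cells, Rplp0 0.92, Rps27l 0.90, Rps4x 1.07 and Rps7 1.11 in Ltf+ cells, Rpl32 1.81, Rpl41 1.85, Rplp0 1.78 and Rps27l 0.71 in duct-like cells, and Rpl32 1.31, Rplp0 1.11, Rps24 1.499 and Rps27l 0.72 in MECs. With UMIs without tear and mitochondrial genes as library size the counts were 1 (Car6-high), 42 (Ltf+), 8 (endothelial) and 27 (myeloid). DESeq2 called 26 lower (mitochondrial share, shallow), 16 higher and 10 lower (duct, where the main count is mostly lower) and 9 higher and 7 lower (endothelial). With no replicate block, that is, without the library as block, they were 41 (mitochondrial share, middle depth), 1 (Car6-high), 34 (Ltf+), 3 (duct), 22 (fibroblast) and 1 (endothelial). No filter on low counts gave 1 (mitochondrial share, shallow), 74 (Car6-high) and 20 (fibroblast). A mitochondrial limit of 5% gave 45 (middle depth) and 63 (Car6-high), and more doublets removed gave 75 (Car6-high).

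Subtracting free RNA of 10 to 100 UMI barcodes gave 77 (Car6-high), 32 (Ltf+), 1 (duct), 28 (MEC), 1 higher (fibroblast, reversed), 1 (endothelial), 33 (lymphoid) and 37 (myeloid), and member shares of 0.239% (Tfrc-high), 1.53% (Car6-high), 11.2% (Ltf+), 20.9% (duct), 12.7% (MEC), 13.5% (fibroblast), 20.8% (endothelial), 9.04% (mural), 34.8% (lymphoid) and 23.1% (myeloid). The profile of 500 to 2000 UMI barcodes, chosen after seeing the data, gave 77 (Car6-high) and 15 (fibroblast), and shares of 0.865, 4.33, 12.7, 20.2, 12.9, 13.5, 20.2, 9.88, 31.8 and 22.6% in the same order. As a share of UMIs without tear and mitochondrial genes, the mean levels were 24.6% (acinar), 9.67% (Tfrc-high), 18.9% (Car6-high), 17.1% (Ltf+), 22.2% (duct), 14.9% (MEC), 15.5% (fibroblast), 22.2% (endothelial), 13.3% (mural), 32.9% (lymphoid) and 23.98% (myeloid), and 19.4, 12.4, 27.2, 14.7, 29.0 and 25.5% in shallow low, shallow high, middle low, middle high, deep low and deep high acinar-like cells. The Ltf+ share was 4.46% at a clustering resolution of 0.5 and 6.64% with more doublets removed. The middle high share was 1.79% with more doublets removed and 1.85% at the 5% limit.

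Leaving out each library in turn gave counts of 0 to 41 (mitochondrial share, shallow), 30 to 74 (middle depth), 0 to 72 (Car6-high), 23 to 70 (Ltf+), 5 to 14 (duct), 11 to 58 (fibroblast) and 1 to 8 (endothelial, where without male library 2 the 1 call was Rpl39l, lower), and 22 to 156 departures from the other members. The value of Rpl39l relative to the members, with at most 1 UMI in either class, ranged from −1.37 to 0.072 in Car6-high cells and from −0.068 to 2.24 in MECs, the turn of sign coming without the female library. No paired analysis was possible between the sexes, since the female and male libraries came from different animals and nothing links them in pairs. Of the results for single members, 656 kept direction and side of the threshold, 127 lost the call, 5 gained it and 18 reversed over all alternatives.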
